A study of Homo sapiens with 4 samples.

Results

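The mechanistic target of rapamycin (mTOR) genes and their stress-induced inhibitors were examined in RNA-seq libraries of a leukemia cell line with and without knockdown of CEBPG, a leucine-zipper transcription factor. The members were 10 genes of the 16504 gene symbols in the deposited table: MTOR, RPTOR, RICTOR, TSC1, TSC2, RHEB, RPS6KB1, DDIT4, SESN2 and TRIB3. They were taken by symbol, from knowledge of the pathway and with earlier results of these data known. The listed transcripts of each were summed to a gene total. The series held 4 libraries labelled NB4, the name of a human cell line from acute promyelocytic leukemia: 2 control libraries with CEBPG present and 2 libraries with CEBPG knockdown. In the study, cells were infected with pLKO.1-puro lentivirus carrying a short hairpin RNA (shRNA) and stable cells were selected with puromycin. The title of the knockdown libraries carries the number 3, read here as hairpin 3 of CEBPG. This reading is an assumption, and if it holds the knockdown group rests on a single hairpin. Nothing in the labels says whether the 2 libraries of a group came from separate cultures, so p-values measure only the spread between these libraries, which may be technical.

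mTOR is a protein kinase that couples growth signals and nutrients to protein synthesis. It works in 2 complexes: mTORC1, which contains the scaffold raptor (encoded by RPTOR), and mTORC2, which contains rictor (RICTOR). The small GTPase RHEB switches mTORC1 on at the lysosome, and the TSC1 and TSC2 proteins hold RHEB in its inactive state. Active mTORC1 phosphorylates the S6 kinase (RPS6KB1) and the EIF4E-binding proteins, among them EIF4EBP1, the gene the study followed. DDIT4 (also called REDD1), SESN2 (sestrin 2) and TRIB3 (Tribbles pseudokinase 3) are switched on by stress, and ATF4, a partner of CEBPG, is among the factors known to drive them. DDIT4 and SESN2 are known to lower mTORC1 activity, and TRIB3 is known to bind AKT. RNA levels do not report the activity of these kinases.

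Values are FPKM (fragments per kilobase of transcript, scaled by library depth), a level per unit length. FPKM summed to between 346170 and 367105 per library, read depth was unknown, and Pearson's r of log2(FPKM + 1) across tested genes (genes being no independent replicates) was 0.994 between the control libraries, 0.993 between the knockdown libraries and 0.983 to 0.985 between groups. CEBPG itself was at 17.1 and 18.1 FPKM in control cells and at 6.91 and 7.96 FPKM after CEBPG knockdown, a log2 fold change of -1.14 ± 0.082 (SE, limma, adjusted p = 0.000836). The lineage markers went against the label. Of 12 myeloid markers in the table, 8 had a mean under 1 FPKM, among them the promyelocyte granule genes AZU1 (0.37 to 0.57 FPKM) and PRTN3 (0.0897 to 0.188 FPKM). Of 17 erythroid markers 13 were over 10 FPKM in every library, and their sum was 8406 and 7930 FPKM in control cells and 9391 and 8805 FPKM after knockdown. The summed myeloid markers were at 63.2 and 62 FPKM in control cells and at 92.3 and 89.2 FPKM after CEBPG knockdown. Most of that difference was CD68, which rose from 20.6 and 18.5 FPKM to 47.3 and 43.9 FPKM (limma, adjusted p = 0.000638), while LYZ on the same list fell from 20.1 and 18.1 FPKM to 15 and 15.5 FPKM (limma, adjusted p = 0.0289). Of the T cell markers, CD3D rose from 32.3 and 33.3 FPKM to 67 and 56.3 FPKM (log2 fold change 0.88, limma, adjusted p = 0.0018) while CD3E and CD2 were under 0.1 FPKM in every library, and both B cell markers in the table were under 1 FPKM. The libraries are therefore called by their label only, and the part of these markers in the results below was not tested. In bulk RNA, a change in the share of cells of a type and a change in RNA per cell cannot be told apart.

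To address whether CEBPG knockdown changed RNA of the mTOR machinery, all 10 members were tested in a fit across the 10968 genes that averaged 1 FPKM or more (limma on log2(FPKM + 1), Benjamini-Hochberg adjustment over all genes tested). All 10 members passed that filter. RPTOR and TRIB3 fell and TSC2 and DDIT4 rose at an adjusted p under 0.05. The count of 4 of 10 stands beside 20.9% of all tested genes called (10.9% higher and 9.99% lower). No member passed the threshold of the study methods, read as an absolute log2 fold change over 1 at p under 0.05 before adjustment, which 0.602% of all tested genes passed. Changes were small: the absolute log2 fold change of the members had a median of 0.14 and a maximum of 0.41, against a median of 0.15 over all tested genes. The signed median was -0.042 for the members and 0.015 for all tested genes. The 2 knockdown libraries did not overlap the 2 control libraries in 8 of the 10 members, where 64.8% of all tested genes showed no overlap. Of these members 3 were higher after knockdown (background 34.3%) and 5 lower (background 30.5%), and shares near the background are no result about the members.

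**Figure D1:**
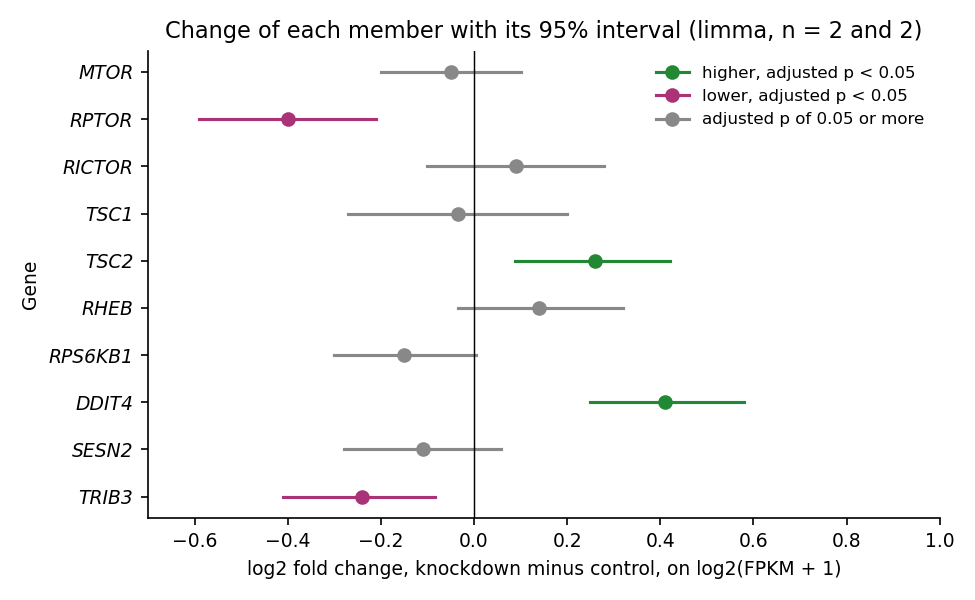
Change of each member on CEBPG knockdown: the x axis is the log2 fold change (knockdown minus control, on log2(FPKM + 1)), the points are limma estimates from 2 control and 2 knockdown libraries, and the bars are 95% intervals. RPTOR (-0.40) and TRIB3 (-0.24) lay below 0 and TSC2 (0.26) and DDIT4 (0.41) above, while the intervals of the other 6 members included 0.

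The members spanned a wide range of levels. DDIT4 was the most abundant, with a mean of 161 FPKM over the 4 libraries, which placed it 304th of the tested genes. TRIB3 followed at 56.2 FPKM and RHEB at 27.5 FPKM. MTOR (16.3 FPKM) and SESN2 (15.2 FPKM) came next, and their ranges over the libraries overlapped. RPS6KB1 (12.2 FPKM), TSC2 (11.6 FPKM) and RPTOR (10.3 FPKM) formed a group in which neighbours overlapped. RICTOR (5.72 FPKM) and TSC1 (2.55 FPKM) were lowest, and their ranges overlapped no neighbour.

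**Figure D2:**
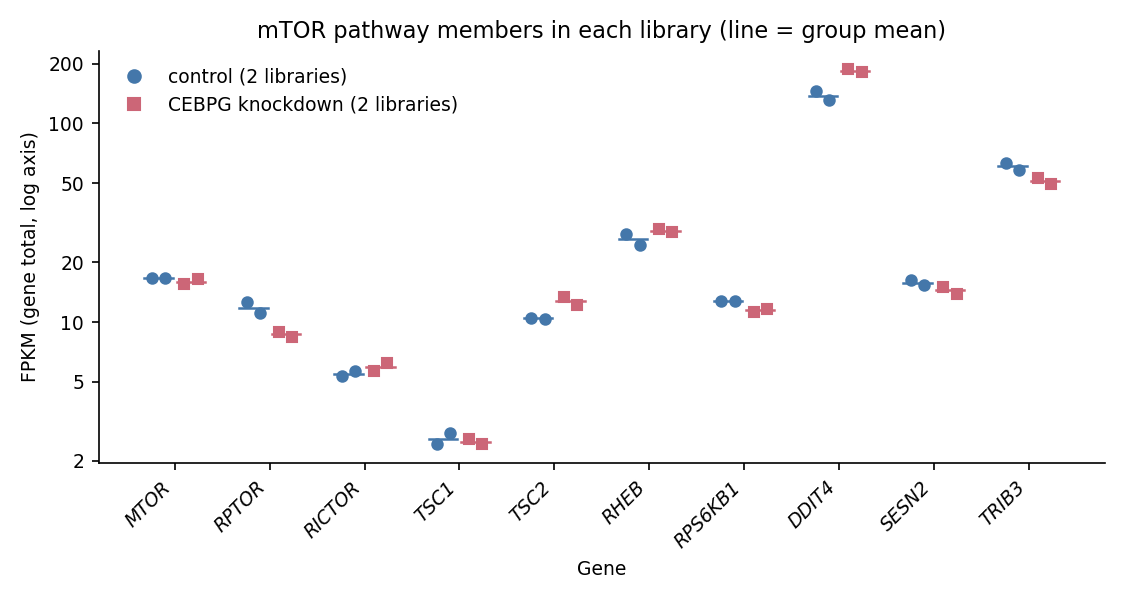
Level of each member in each library: the y axis is FPKM of the gene total on a log scale, circles are control libraries, squares are knockdown libraries and lines are group means. DDIT4 lay between 131 and 187 FPKM and TSC1 between 2.42 and 2.77 FPKM; squares lay above circles for TSC2, RHEB and DDIT4 and below them for MTOR, RPTOR, RPS6KB1, SESN2 and TRIB3.

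Of the kinase and its scaffolds, the mTORC1 scaffold moved and the other genes did not pass the test. RPTOR (chromosome 17, positions 80544819 to 80966371, plus strand, hg38, GENCODE 44) was at 12.6 and 11.1 FPKM in control cells and at 8.94 and 8.45 FPKM after CEBPG knockdown. RPTOR was lower in each knockdown library than in either control library. The mean fell to 73.5% of control, from 11.8 ± 1.06 FPKM to 8.7 ± 0.341 FPKM (mean ± SD, n = 2 libraries each). The log2 fold change of RPTOR was -0.40 ± 0.081 (SE, limma, adjusted p = 0.0172). The call was lost without control 1 (-0.32, limma adjusted p = 0.0514), without knockdown 1 (-0.44, 0.0586) and without knockdown 2 (-0.37, 0.0826), and held without control 2 (-0.49, 0.0155). In each of these 4 fits RPTOR kept its direction. Exons of 4 other genes overlap those of RPTOR, each over 0.553% to 1.29% of its exonic bases. Among them is a protein-coding gene on the same strand (0.582%). The part of such reads in the RPTOR values was not tested. MTOR, RICTOR and RPS6KB1 also have overlapped exons, at 1.13% to 1.94% per overlapping gene.

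MTOR, the catalytic subunit of both complexes (chromosome 1, positions 11106535 to 11262556, minus strand), was at 16.6 FPKM in each control library and at 15.5 and 16.5 FPKM after CEBPG knockdown. Knockdown 2 was close to the controls, and the log2 fold change of -0.05 (95% interval -0.20 to 0.10, limma, adjusted p = 0.611) was not distinguished from no change. RICTOR, the scaffold of mTORC2 (chromosome 5, positions 38937920 to 39074402, minus strand), was at 5.36 and 5.64 FPKM in control cells and at 5.64 and 6.22 FPKM after CEBPG knockdown. The groups overlapped, and the log2 fold change was 0.091 (95% interval -0.10 to 0.28, limma, adjusted p = 0.451). The ratio of RPTOR to RICTOR was 2.35 and 1.96 in control cells and 1.58 and 1.36 after knockdown, so that both knockdown ratios were below both control ratios. The ratio of RPTOR to MTOR was 0.758 and 0.666 in control cells and 0.576 and 0.512 after knockdown. The ratios given here and below are descriptions and were not tested.

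The switch upstream of mTORC1 is formed by TSC1, TSC2 and RHEB. TSC2 (chromosome 16, positions 2047967 to 2089491, plus strand), the GTPase-activating subunit that acts on RHEB, was at 10.5 and 10.4 FPKM in control cells and at 13.3 and 12.2 FPKM after CEBPG knockdown. Both knockdown libraries were above both control libraries. The mean rose to 121% of control, from 10.5 ± 0.0696 FPKM to 12.7 ± 0.803 FPKM (mean ± SD, n = 2 libraries each), with a log2 fold change of 0.26 ± 0.071 (SE, limma, adjusted p = 0.045). This call lies just under the threshold and was lost in each fit that left out 1 library: 0.26 without control 1 (limma adjusted p = 0.0887), 0.25 without control 2 (0.108), 0.20 without knockdown 1 (0.229) and 0.32 without knockdown 2 (0.079). It was also lost with columns scaled to one sum (adjusted p = 0.0508) and without a mean trend in the moderation (0.0638). Exons of PKD1 on the opposite strand cover 3.82% of the exonic bases of TSC2. Without stated strand-specific counting, reads there cannot be assigned, and PKD1 was at 8.22 and 7.65 FPKM in control cells and at 8.78 and 8.91 FPKM after CEBPG knockdown.

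TSC1, which stabilizes TSC2 (chromosome 9, positions 132891348 to 132946874, minus strand), was at 2.42 and 2.77 FPKM in control cells and at 2.58 and 2.43 FPKM after CEBPG knockdown. The groups overlapped and the log2 fold change was -0.035 (95% interval -0.27 to 0.20, limma, adjusted p = 0.829). Without control 2 the TSC1 value turned to 0.036 (limma, adjusted p = 0.872). Exons of GFI1B on the opposite strand cover 1.98% of the exonic bases of TSC1, and GFI1B, an abundant gene in these libraries, was at 43.7 and 43.1 FPKM in control cells and at 56.8 and 55.8 FPKM after CEBPG knockdown. The part of such reads in the TSC1 values was not tested. The ratio of TSC2 to TSC1 was 4.36 and 3.77 in control cells and 5.16 and 5 after knockdown. RHEB (chromosome 7, positions 151466012 to 151520120, minus strand) was at 27.8 and 24.5 FPKM in control cells and at 29.5 and 28.4 FPKM after CEBPG knockdown. Knockdown values of RHEB were above the control values, but the control libraries differed by more than the group means did from each other. The log2 fold change of 0.14 (95% interval -0.035 to 0.32, limma, adjusted p = 0.214) was not distinguished from no change. The RHEB value was 0.23 without control 1 and 0.056 without control 2.

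RPS6KB1, the S6 kinase that mTORC1 phosphorylates (chromosome 17, positions 59893046 to 59950574, plus strand), was at 12.8 FPKM in each control library and at 11.3 and 11.7 FPKM after CEBPG knockdown. Both knockdown libraries were lower, at 89.7% of the control mean. RPS6KB1 had the tightest replicates of the members, with an SD of 0.0242 on the log2 scale against a median of 0.0714 over all tested genes. Its log2 fold change of -0.15 (95% interval -0.30 to 0.0052, limma, adjusted p = 0.147) did not pass the test.

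Of the 3 stress-induced inhibitors, DDIT4 rose, TRIB3 fell and SESN2 did not pass the test. DDIT4 (chromosome 10, positions 72273919 to 72276036, plus strand) was at 146 and 131 FPKM in control cells and at 187 and 182 FPKM after CEBPG knockdown. Both knockdown libraries were well above both control libraries. The mean of DDIT4 rose to 133% of control, from 138 ± 10.5 FPKM to 184 ± 3.66 FPKM (mean ± SD, n = 2 libraries each), with a log2 fold change of 0.41 ± 0.069 (SE, limma, adjusted p = 0.00941). DDIT4 had the lowest adjusted p of the members. The call held without control 1 (0.49, limma adjusted p = 0.00538) and without control 2 (0.34, 0.0173) and was lost without knockdown 1 (0.39, 0.0803) and without knockdown 2 (0.43, 0.0595).

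TRIB3 (chromosome 20, positions 362835 to 397559, plus strand) was at 63.6 and 58.4 FPKM in control cells and at 53.1 and 49.6 FPKM after CEBPG knockdown. Both knockdown libraries were lower. The mean fell to 84.1% of control, from 61 ± 3.66 FPKM to 51.3 ± 2.49 FPKM (mean ± SD, n = 2 libraries each), with a log2 fold change of -0.24 ± 0.068 (SE, limma, adjusted p = 0.0466). The call lies just under the threshold and was lost without control 1 (-0.18, limma adjusted p = 0.115), without knockdown 1 (-0.29, 0.121), without knockdown 2 (-0.20, 0.246) and without a mean trend (-0.24, 0.084), and it held without control 2 (-0.31, 0.0323). SESN2 (chromosome 1, positions 28259518 to 28282491, plus strand) was at 16.3 and 15.3 FPKM in control cells and at 15.1 and 13.9 FPKM after CEBPG knockdown. Knockdown 1 was close to control 2, and the log2 fold change of -0.11 (95% interval -0.28 to 0.058, limma, adjusted p = 0.3) was not distinguished from no change. The ratio of DDIT4 to TRIB3 was 2.29 and 2.24 in control cells and 3.52 and 3.67 after knockdown, and that of DDIT4 to SESN2 was 8.95 and 8.58 against 12.4 and 13.

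The start regions of the members were read from RefSeq (GRCh38.p14), from 250 bases before to 50 bases after each listed start, in 13 windows of all 10 members. The motif TGATGNAA, the core of the composite element that ATF4 binds together with CEBP proteins, was found in 1 of these windows, at TSC2, and in 3.62% of all 35116 windows in the table. The motif CACGTG was found in the same TSC2 window and in 7.26% of all windows. TTGCGCAA, a CEBP palindrome, and TGACGTCA, the cyclic AMP response element, were found in no member and in 0.151% and 1.85% of all windows. CCAAT, added to the search after values were seen, was found in 5 of the 13 windows and in 34.6% of all windows. These 5 windows belong to MTOR, RICTOR, RHEB, DDIT4 and SESN2, of which DDIT4 alone was called. Motifs were searched on both strands. The windows of TSC2 and DDIT4, the members that rose, are shown 5′ to 3′ with motif matches in capitals. At TSC2 (chr16:2047735-2048034, plus strand) CACGTG begins 114 bases and TGATGCAA 110 bases before the start site, and the matches share bases. At DDIT4 (chr10:72273674-72273973, plus strand) CCAAT lies on the opposite strand, written ATTGG, 108 and 75 bases before the start site. These are matches of letters and not sites shown to be bound.
TSC2: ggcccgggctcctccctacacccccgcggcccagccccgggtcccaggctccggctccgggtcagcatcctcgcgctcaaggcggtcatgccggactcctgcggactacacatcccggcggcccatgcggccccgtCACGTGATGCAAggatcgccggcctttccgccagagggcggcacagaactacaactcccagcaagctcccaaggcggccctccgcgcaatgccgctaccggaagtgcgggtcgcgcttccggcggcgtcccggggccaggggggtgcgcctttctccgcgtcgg
DDIT4: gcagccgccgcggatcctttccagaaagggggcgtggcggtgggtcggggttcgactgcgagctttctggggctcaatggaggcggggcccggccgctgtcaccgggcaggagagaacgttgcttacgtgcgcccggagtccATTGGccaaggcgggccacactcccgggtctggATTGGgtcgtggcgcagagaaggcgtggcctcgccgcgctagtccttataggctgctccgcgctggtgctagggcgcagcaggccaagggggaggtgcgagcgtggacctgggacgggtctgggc

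Gene totals can hide shifts between listed transcripts, but no tested transcript of a member was called. MTOR, RPTOR, RHEB, DDIT4 and SESN2 each had 1 listed transcript, and NM_021158 held 98.6% of TRIB3. TSC2 had 3. Its main transcript NM_001077183 was at 9.74 and 9.38 FPKM in control cells and at 11.2 and 8.3 FPKM after CEBPG knockdown, which overlapped. The minor transcript NM_001114382 was at 0.774 and 1.04 FPKM in control cells and at 2.04 and 3.84 FPKM after CEBPG knockdown. NM_001114382 accounted for 2.03 of the 2.24 FPKM by which the TSC2 mean rose, though the knockdown libraries divided the rise unequally, and its own log2 fold change of 1.01 (95% interval 0.20 to 1.82) had a limma adjusted p of 0.19 among 15795 transcripts tested.

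In RICTOR, TSC1 and RPS6KB1 the division between transcripts also differed between replicates of a group. The RICTOR transcript NM_152756 held 63.7% of the gene in control 1 and 64.1% in knockdown 2, but 37.1% in control 2 and 38.9% in knockdown 1, and NM_001285439 held nearly all of the remainder. The TSC1 transcript NM_000368 was at 2.22 and 1.68 FPKM in control cells and at 1.2 and 1.43 FPKM after CEBPG knockdown, with the remainder in NM_001162426. The log2 fold change of NM_000368 was -0.34 (95% interval -0.86 to 0.17, limma, adjusted p = 0.384). Of RPS6KB1, NM_003161 held between 51.7% and 66.8% and NM_001272060 between 27.8% and 43% of the gene. Neither of these RPS6KB1 transcripts passed the test, with log2 fold changes of -0.072 (limma, adjusted p = 0.813) and -0.27 (0.547).

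**Figure D3:**
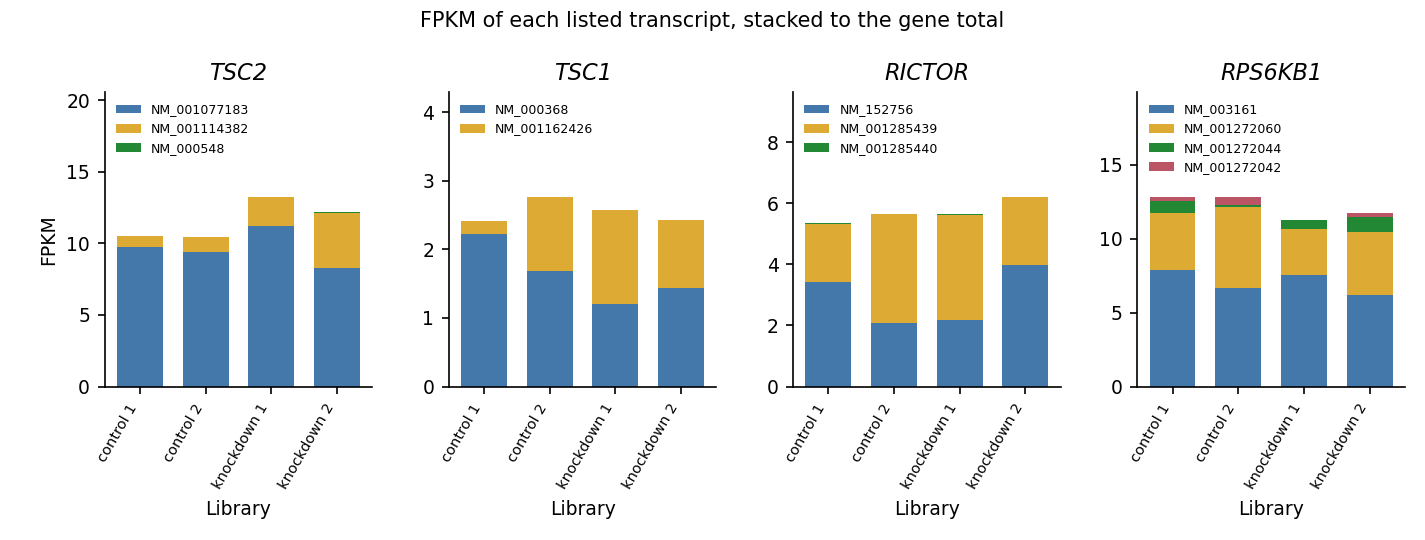
Listed transcripts of TSC2, TSC1, RICTOR and RPS6KB1: bars are libraries, the y axis is FPKM from 0, and colours are RefSeq transcripts stacked to the gene total. In TSC2 the segment of NM_001114382 grew from 0.774 and 1.04 FPKM to 2.04 and 3.84 FPKM, and in RICTOR the division of a nearly level total differed between libraries of the same group.

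Other genes of the pathway were read in 9 lists of 120 genes, of which 104 were tested. Of these, 13 were called higher and 11 lower (23.1% of those tested, against 20.9% of all tested genes), with a median log2 fold change of 0.06. Leaving out knockdown 1 or knockdown 2 reduced these 24 calls to 9 and 7. The calls of EIF4EBP1, EIF4EBP2, ATF5, BMT2, TRIB1, CDKN1A and EGLN3 held whichever library was left out. Those of RRAGB, KPTN, C12orf66, PRKAB2, ULK1 and KDM3A were lost in each such fit. Of the other 11, each was lost without knockdown 2 and, with the exception of AKT1S1 and MDM2, without knockdown 1, while TTI1, FNIP1, ATG13, SESN3, ASNS and FDXR were also lost without control 1 and SESN1 without control 2. With no filter on low values the same 17 genes lost their calls, and with transcripts in place of genes the calls of EIF4EBP1 and ATF5 alone were kept. With columns scaled to one sum RRAGB, PRKAB2, ULK1 and KDM3A lost their calls, and without a mean trend ASNS, FDXR, SESN1 and KDM3A. For the genes that lost a call, the range of adjusted p over the fits with a library left out is given after the gene as a leave-out range.

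Among partners of mTORC1 and mTORC2, 9 of 11 genes were tested and 2 fell. AKT1S1, which encodes the mTORC1 inhibitor PRAS40, was at 22.9 and 19 FPKM in control cells and at 15.5 and 14 FPKM after CEBPG knockdown (log2 fold change -0.48, limma, adjusted p = 0.0187, leave-out range 0.00761 to 0.0875). Its main transcript alone was at -0.29 (limma, adjusted p = 0.417). TTI1, part of the chaperone complex that assembles mTOR, was at 14 and 12.5 FPKM in control cells and at 10 and 10.5 FPKM after CEBPG knockdown (-0.34, limma adjusted p = 0.0254, leave-out range 0.0228 to 0.128). The list median was 0.15, with MLST8, a subunit of both complexes, at 0.20 (limma, adjusted p = 0.155). Among Rag GTPases, Ragulator and their regulators, which bring mTORC1 to the lysosome, RRAGB (0.33, limma adjusted p = 0.0431, leave-out range 0.103 to 0.188) and FNIP1 (0.37, 0.0192, leave-out range 0.0245 to 0.0864) rose and the other 10 of 12 tested genes did not pass the test. Among GATOR, KICSTOR and amino acid sensors, 15 were tested. KPTN (-0.33, limma adjusted p = 0.0479, leave-out range 0.0629 to 0.173) and C12orf66 (-0.42, 0.0268, leave-out range 0.0515 to 0.106), both encoding KICSTOR subunits, fell. BMT2, which encodes the S-adenosylmethionine sensor SAMTOR, rose from 2.23 and 2.29 FPKM in control cells to 3.81 and 3.77 FPKM after knockdown (0.56, limma adjusted p = 0.00764). Of 13 tested AKT and AMPK pathway kinases and regulators, PRKAB2, an AMPK subunit, rose (0.31, limma adjusted p = 0.0372, leave-out range 0.0818 to 0.168) and GSK3A fell (-0.29, 0.0181, leave-out range 0.0335 to 0.127).

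Among substrates and further downstream targets of both complexes, 18 were tested, with 1 higher and 3 lower and a median log2 fold change of 0.0072. Both tested genes for EIF4E-binding proteins fell. EIF4EBP1 was at 139 and 123 FPKM in control cells and at 33.6 and 33.3 FPKM after CEBPG knockdown (-1.94, limma adjusted p = 0.000164). EIF4EBP2 was at 23.1 and 22.6 FPKM in control cells and at 11.4 and 11.6 FPKM after CEBPG knockdown, which is 50.2% of the control level (-0.93, limma adjusted p = 0.00072). EIF4EBP3 was under the filter, between 0.237 and 0.637 FPKM. Of the autophagy genes on the list, ULK1 rose (0.27, limma adjusted p = 0.0408, leave-out range 0.0663 to 0.16) and ATG13 fell (-0.33, 0.0298, leave-out range 0.0479 to 0.138). RPS6KB2, which encodes the second S6 kinase, was at 0.094 (limma, adjusted p = 0.383).

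Relatives of the stress inhibitors were few: 4 of 5 were tested and 3 of the 4 rose, where 10.9% of all tested genes were called higher. TRIB1 rose from 2.33 and 2.35 FPKM in control cells to 4.91 and 5.15 FPKM after knockdown (0.85, limma adjusted p = 0.0018). SESN3 rose from 1.15 and 1.46 FPKM to 2.12 and 2.42 FPKM (0.50, limma adjusted p = 0.0277, leave-out range 0.0345 to 0.123), and SESN1 from 6.2 and 5.21 FPKM to 7.53 and 7.49 FPKM (0.35, 0.0375). The SESN1 call was lost for its main transcript alone (0.024, limma adjusted p = 0.945), with no filter (0.35, 0.116), without a mean trend (0.35, 0.0503), without control 2 (0.24, 0.128), without knockdown 1 (0.34, 0.136) and without knockdown 2 (0.35, 0.117). With a pseudocount of 0.1 SESN3 was at 0.76 (limma, adjusted p = 0.0307). TRIB2 was at 0.20 (limma, adjusted p = 0.0548). TRIB3 and SESN2 had negative log2 fold changes where the tested members of the same families had positive ones. SESN2 and TRIB2 did not pass the test, and the difference in sign was not itself tested.

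Groups of genes known to respond to the stresses that induce DDIT4, SESN2 and TRIB3 were read beside them, with 20.9% of all tested genes called (10.9% higher and 9.99% lower) as the background of each count. Of 10 tested genes of the ATF4 arm, ATF5 (-1.14, limma adjusted p = 0.000638) and ASNS (-0.22, 0.042, leave-out range 0.0379 to 0.25) fell and none rose, with a list median of 0.088. ATF4 itself was at 232 and 211 FPKM in control cells and at 241 and 228 FPKM after CEBPG knockdown (0.085, limma adjusted p = 0.409). Of 12 tested p53 targets, 4 rose and FDXR fell (-0.31, limma adjusted p = 0.0377, leave-out range 0.0105 to 0.148), with a list median of 0.19. The cell cycle inhibitor CDKN1A rose from 6.97 and 5.89 FPKM to 15.3 and 15.8 FPKM (1.16, limma adjusted p = 0.000959), and MDM2 (0.44, 0.0112, leave-out range 0.0242 to 0.0609), TNFRSF10B (0.37, 0.0163, leave-out range 0.0117 to 0.0781) and SESN1, with the limits given above, were the others that rose. FDXR was at -0.20 without control 1 (limma, adjusted p = 0.0805) and at -0.091 for its main transcript (0.671). Of 13 tested targets of hypoxia-inducible factor, EGLN3 (0.47, limma adjusted p = 0.00596) and KDM3A (0.22, 0.0481, leave-out range 0.0769 to 0.189) rose, with a list median of 0.06. VEGFA on the same list was at -0.10 (limma, adjusted p = 0.345).

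**Figure D4:**
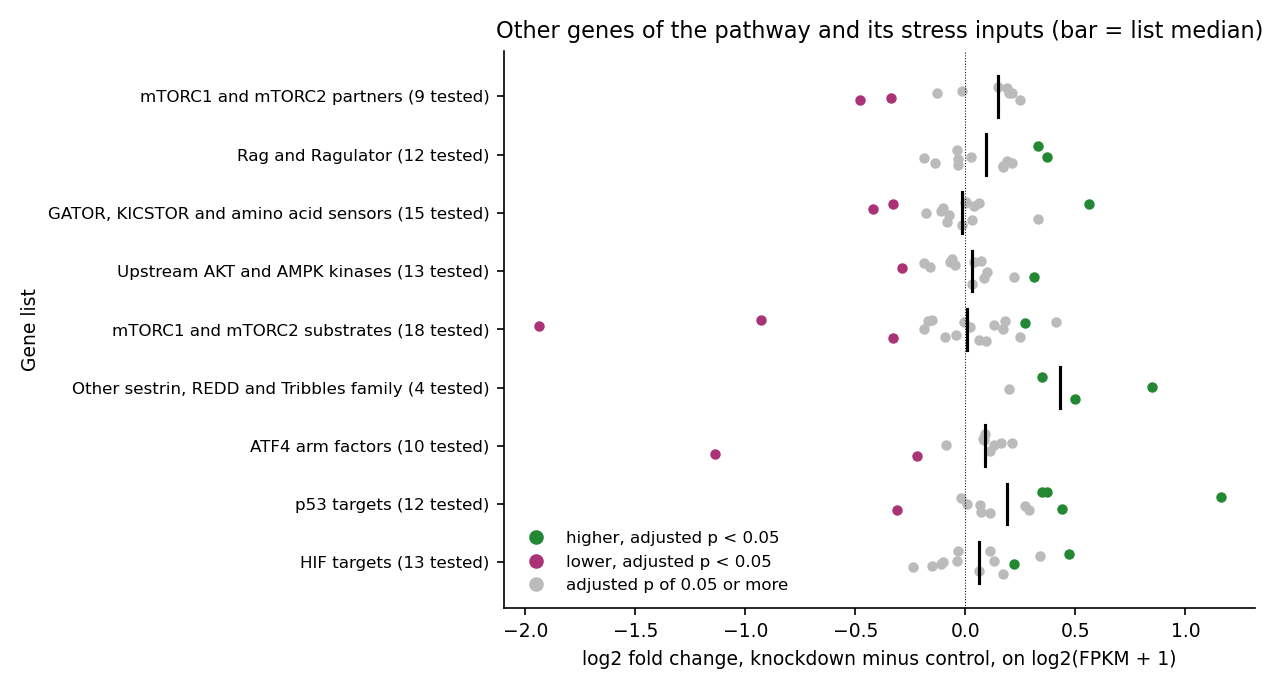
Other genes of the pathway and of its stress inputs: each point is a tested gene, the x axis is its log2 fold change (knockdown minus control, on log2(FPKM + 1)), colours mark an adjusted p under 0.05 and bars are list medians. Most points lay near 0, EIF4EBP1 (-1.94), ATF5 (-1.14) and EIF4EBP2 (-0.93) lay farthest to the left and CDKN1A (1.16) and TRIB1 (0.85) farthest to the right.

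The 4 called members kept their direction under the alternatives run, and each lost its call under some of them. Over 12 alternatives RPTOR ranged from -0.49 to -0.32 and was called in 7, and DDIT4 ranged from 0.34 to 0.49 and was called in 8. TRIB3 ranged from -0.31 to -0.18 and was called in 6. With no filter on low values, where 16504 genes were tested, the fold changes stayed in place and all 4 calls were lost, at limma adjusted p = 0.0711 for RPTOR, 0.0533 for DDIT4, 0.107 for TRIB3 and 0.0969 for TSC2. With transcripts in place of genes the calls were also lost, at 0.153 for RPTOR, 0.106 for DDIT4, 0.228 for TRIB3 and 0.971 for TSC2. TSC2 ranged from 0.014, for its main transcript alone, to 0.32 and was called in 4. MTOR, RICTOR, TSC1, RHEB, RPS6KB1 and SESN2 were called in none of the alternatives run.

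**Figure D5:**
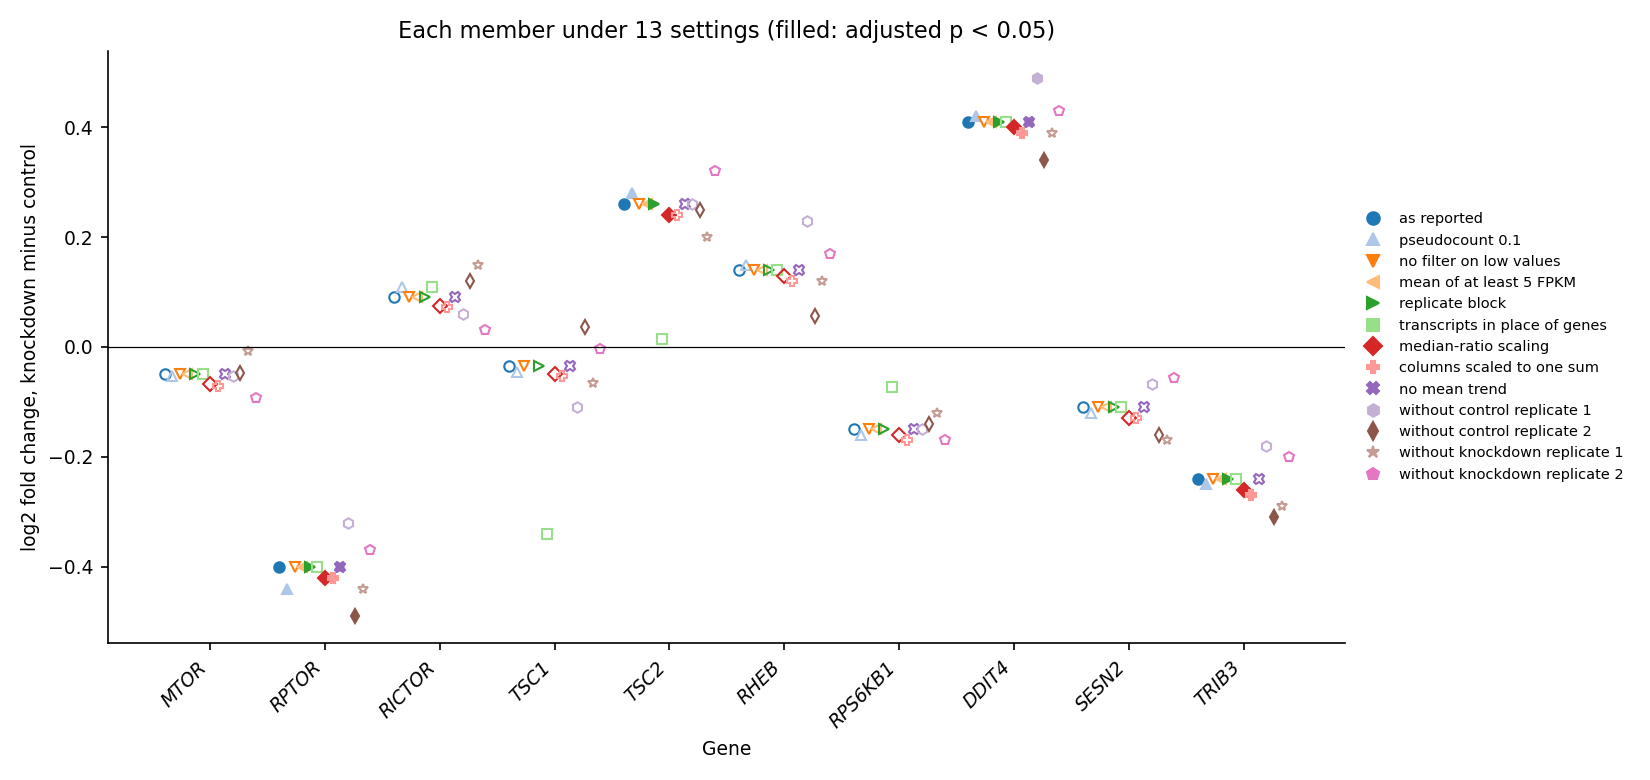
Each member under 13 settings: the y axis is the log2 fold change (knockdown minus control), symbols are settings, and filled symbols have an adjusted p under 0.05. DDIT4 stayed between 0.34 and 0.49 and RPTOR between -0.49 and -0.32, and TSC2 fell to 0.014 when its main transcript stood for the gene.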

How the data were processed

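RNA-seq was read from 1 table with 29265 RefSeq transcript entries and a column for each of 4 libraries (2 control, 2 CEBPG knockdown), grouped by the labels. The authors deposited FPKM values. The study methods name HISAT mapping of filtered reads, and the submitters' processing notes name HISAT2 2.0.5 and hg38. The quantifier and annotation release were not given in the sources used here. FPKM keeps no counts: among 2235 single-transcript genes low in both controls, the most common rounded ratio was shared by 1.3%. Whole reads were thus not recoverable, depth was unknown and the count test of the study could not be run.

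Entries without values (183) or a symbol (164) were left out, and 28918 were summed to 16504 symbols. Genes that averaged 1 FPKM or more were compared with limma 3.58.1 in R 4.3.3 on log2(FPKM + 1), a scale that understates the change of low genes, with a mean trend, 2-sided tests, Benjamini-Hochberg adjustment and no replicate block. The fit was also run on simulated data, with spreads shuffled over genes and set changes larger than any member showed here. That run cannot tell how well changes of the size seen in the members are found. Named genes were the members, CEBPG, EIF4EBP1 and, of each list, at most 6 genes with an adjusted p under 0.05. GFI1B, PKD1, EIF4EBP3, the named markers and the genes named from lists without passing the test were chosen after their values were seen. Positions and exon overlaps came from GENCODE 44 (hg38). The members and lists were chosen with earlier results of these data known. Alternatives were a pseudocount of 0.1, no filter, a minimum of 5 FPKM, a replicate block, transcripts in place of genes, columns scaled to one sum, no mean trend, median-ratio scaling, and each library left out in turn.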

Additional observations from a re-analysis of the deposited data

How the results depend on the processing

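Depth was unknown and each group had 2 libraries, so calls near the threshold were fragile. The count of called genes (2288) was 882 with no filter on low values, 3440 with the replicate block and 25 with transcripts in place of genes (3213 at an unadjusted p under 0.05), and it ranged from 809 to 1931 when a library was left out, where the lone library of a group is assumed to vary like the other group. Genes past the threshold of the study (66) were 146 with a pseudocount of 0.1 and 317 with transcripts. Called members (4) were 0 with no filter (limma, 5 at an unadjusted p under 0.05), 0 with transcripts (3) and 2 without a mean trend. They ranged from 0 to 3 when a library was left out: 1 without control 1, 3 without control 2, and 0 without knockdown 1 or knockdown 2 (3 at an unadjusted p under 0.05 in each). Called pathway genes (24) were 7 with no filter, 37 with the replicate block and 2 with transcripts, and ranged from 7 to 18 when a library was left out. CEBPG as its main transcript was at -1.15 (limma, adjusted p = 0.0587) and was called in the other alternatives run. TSC1, at -0.035, ranged from -0.11 (without control 1) to 0.036 (without control 2) when a library was left out, and was at -0.34 as its main transcript. The labels name nothing shared by equal replicate numbers, so no pairing was assumed. Deviations of same-numbered libraries correlated at 0.101, and with the replicate block the same count of 4 members was called. The share of higher genes among called genes, 52.1%, was 47.1% after median-ratio scaling, 46.7% with columns scaled to one sum, 62.9% without control 1 and 43.2% without control 2. All 24 named pathway genes kept their direction in the alternatives in which they were tested, and 98 of 282 values lost their call.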
